A study of Mus musculus with 9 samples.

Results

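The immediate early genes examined here were Fos, Fosb, Jun, Junb, Egr1, Klf6, Nr4a1, Dusp1, Zfp36 and Ier3, taken as a named list of 10 genes of 18193 on the arrays. All 15 probe sets that the platform annotation assigns to 1 of these genes alone were read. Expression was measured on 9 Affymetrix arrays, 3 of E2A-/- mice, 3 of Lyl1-/- mice and 3 of WT mice, from bone marrow cells sorted as Lineage-CD117+SCA-1+CD135+, the CD135+ fraction of the LSK stem and progenitor gate. E2A is an E protein encoded by Tcf3, and Lyl1 is a helix-loop-helix factor that dimerises with E proteins; the labels name no Cre driver for either deletion. The labels give no strain, age, sex or number of mice per sample. The labels call the 3 samples of a genotype independent.

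Immediate early genes are transcribed within minutes of a signal, without new protein synthesis, when MAP kinases and calcium signals act on transcription factors already bound at their promoters. Their mRNAs are short-lived, and their products include the AP-1 subunits that carry the response forward and the phosphatases and RNA-binding proteins that end it. In sorted haematopoietic cells they are also known as a sign of handling, since tissue dissociation and cell sorting can induce them. Each value is therefore given by array before genotypes are compared.

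Promoters of this gene class carry elements for signal-activated factors, and 4 upstream windows of 250 bases are shown because they hold, or in one case lack, the elements searched. RefSeq's promoter table (GRCm38.p6) held 9 of the 10 genes, and Egr1 was the other. The elements were the cAMP response element TGACGTCA, its core TGACG, the AP-1 site TGANTCA, the TATA box TATAAA and the CArG box bound by serum response factor, each on both strands. Every full cAMP response element also holds the core. Capitals mark the matches.
Fos, chr12:85473640-85473889, plus strand: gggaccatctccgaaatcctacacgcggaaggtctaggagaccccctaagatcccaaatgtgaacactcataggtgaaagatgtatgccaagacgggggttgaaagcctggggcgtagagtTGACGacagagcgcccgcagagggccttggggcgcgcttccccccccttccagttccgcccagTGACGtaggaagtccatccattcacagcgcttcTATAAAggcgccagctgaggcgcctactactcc
Dusp1, chr17:26508473-26508722, minus strand: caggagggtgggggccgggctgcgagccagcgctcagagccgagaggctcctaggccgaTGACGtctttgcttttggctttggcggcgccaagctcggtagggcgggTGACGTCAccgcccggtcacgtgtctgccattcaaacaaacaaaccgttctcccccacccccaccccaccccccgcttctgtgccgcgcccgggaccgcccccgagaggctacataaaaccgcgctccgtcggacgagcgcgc
Zfp36, chr7:28379229-28379478, minus strand: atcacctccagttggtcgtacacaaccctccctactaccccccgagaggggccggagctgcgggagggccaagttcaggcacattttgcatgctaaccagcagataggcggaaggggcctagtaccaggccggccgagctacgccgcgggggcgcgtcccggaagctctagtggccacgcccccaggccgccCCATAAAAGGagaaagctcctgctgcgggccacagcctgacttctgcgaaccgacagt
Ier3, chr17:35821463-35821712, plus strand: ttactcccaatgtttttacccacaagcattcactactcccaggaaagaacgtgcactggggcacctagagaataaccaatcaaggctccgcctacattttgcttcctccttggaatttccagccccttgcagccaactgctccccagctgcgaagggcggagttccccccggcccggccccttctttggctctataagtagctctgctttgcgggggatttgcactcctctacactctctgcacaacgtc
Of the 9 genes, 5 had the core (Fos, Fosb, Junb, Dusp1 and Nr4a1), as did 17.8% of the 32851 promoters in the table. The full element was found in Dusp1 alone of the 9, from 143 to 136 bases before the start, against 1.55% of all promoters. A CArG box was found in Zfp36, 58 to 49 bases before the start (1.47% of all promoters), a TATA box in Fos (12.4%), and an AP-1 site in 0 of 9 genes (6.75%). The Ier3 window held none of the 5 elements, and neither did the windows of Jun and Klf6, not shown. These matches describe the letters of the windows only.

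The arrays carried linear intensities, and the array medians lay between 77.9 and 79.2, with a lowest intensity of 42.1 to 45.1. A value near the median is close to the level that most silent genes show, so differences there are compressed. Kit (CD117) and Flt3 (CD135) of the sort gate, and the progenitor and leukocyte genes Cd34 and Ptprc, were above the median on all 9 arrays; Ly6a (SCA-1) was not analysed here. In the Lyl1-/- group Lyl1 read 79.2 to 92.0, against 1352 to 1443 in WT (log2 difference -4.01, SE 0.165, limma adjusted p = 5.55e-05). Tcf3 read 121 to 193 in the E2A-/- group and 164 to 205 in WT (limma adjusted p = 0.888); whether that probe set lies in the deleted part is unknown here, so it checks no label. WT 1 and WT 3 differed by a robust log2 spread of 0.0828 at the brightest 20% of probe sets, against 0.191 to 0.384 in the other 35 pairs of arrays, and by more than 2-fold at 0 probe sets, against 3 to 273. They were averaged and counted as 1 sample, which left 2 WT samples beside 3 of each knockout. On E2A-/- 2 and E2A-/- 3 the 18 mature granulocyte and monocyte markers summed to 20323 and 22880, against 4441 on E2A-/- 1, 3663 to 5654 on the Lyl1-/- arrays and 3698 to 4573 on the WT arrays. S100a8 (5524 and 6214), Ngp (3991 and 3436) and S100a9 (2737 and 4723) were the largest on E2A-/- 2 and 3. All 14 tested markers were positive for E2A-/- over WT (median log2 difference 1.17). Csf3r (572, 476 and 365) and Padi4 (239, 196 and 151) nevertheless fell from E2A-/- 1 to 3, and Itgam was above the median on 0 arrays. The 8 erythroid markers summed to 1154 to 2497 on the E2A-/- arrays, 695 to 846 on the Lyl1-/- arrays and 888 to 956 on the WT arrays, with 7 of 7 tested genes positive for E2A-/- over WT (median log2 difference 0.72). The collagen gene Col1a2, named after its values were seen, read 415 on WT 2 and 69.6 to 102 on the other arrays. Of the 10 genes of its stromal and endothelial list, only Col1a2 and Col1a1 (130) were highest on WT 2. Sparc (89.9), Cxcl12 (68.0) and Pecam1 (67.4) were lowest there. The female-specific RNA Xist read 2362 on E2A-/- 2 and 2011 and 2001 on Lyl1-/- 1 and 2, against 79.7 to 104 on the other 6 arrays, all 3 WT arrays among them. In sorted pools of this kind, more cells of a type and more RNA per cell cannot be told apart.

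Immediate early genes were dim in these progenitors. Of the 15 probe sets, 4 lay above the array median on all 9 arrays, 4 on none and 7 on some. The 4 that did belonged to Ier3, Dusp1, Nr4a1 and Klf6. Over all 15 probe sets the intensity ran from 52.5 to 209.5, and the highest array exceeded the lowest by 1.10 to 1.82 times, so 0 probe sets spanned 2-fold. Of 11961 tested genes, each read by 1 probe set that passed the filter on dim genes, 7.03% did so. The 15 probe sets were not filtered in that way and are too few to set against this share. Fos, the founding member of the class, was at or below the array median on 5 of 9 arrays.

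**Figure D1:**
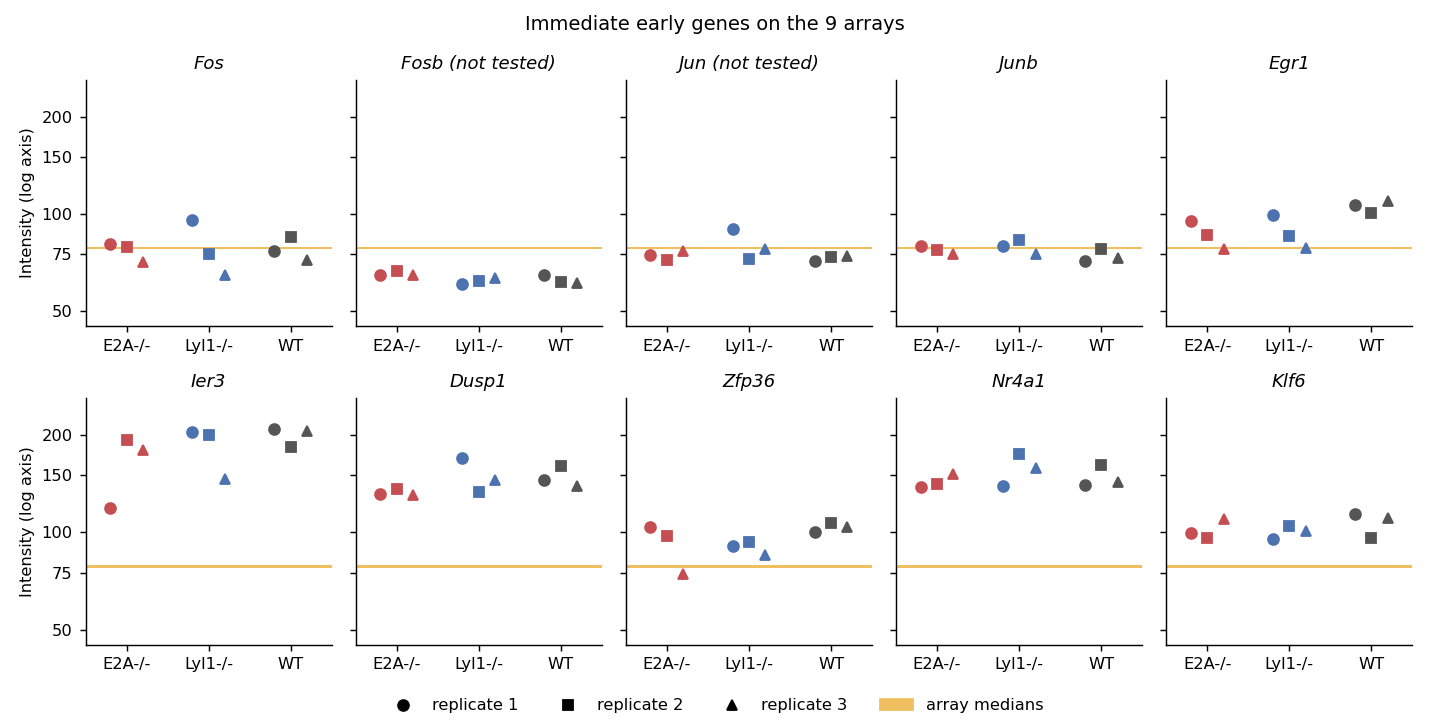
Intensity (log axis) of the probe set that stands for each of the 10 genes, by genotype; each point is 1 array, its shape the replicate number, and the band spans the 9 array medians. All points lie between 60.7 and 209.5, and the points of the 3 genotypes overlap for most genes.

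Fos and its relative Fosb pair with Jun proteins to form AP-1, a transcription factor of the stress and growth factor response. Fos read 80.8, 79.2 and 71.0 in the E2A-/- samples, 95.8, 75.2 and 64.9 in the Lyl1-/- samples and 76.7, 85.0 and 72.2 in the WT samples. The highest and the lowest of these 9 values were both Lyl1-/- arrays, and the 3 groups overlapped. The log2 difference of Fos was -0.05 for E2A-/- over WT (SE 0.163, limma adjusted p = 0.980) and -0.04 for Lyl1-/- over WT (SE 0.163, limma adjusted p = 0.984). Fosb stayed below the median on all 9 arrays, at 64.7 to 66.6 in E2A-/-, 60.7 to 63.5 in Lyl1-/- and 61.1 to 64.9 in WT, and was not tested. Jun, a partner of Fos in AP-1, read 74.8, 72 and 76.5 in E2A-/-, 89.7, 72.8 and 77.9 in Lyl1-/- and 71.5, 73.5 and 74.1 in WT. It was above the median on 1 array, Lyl1-/- 1, and therefore not tested either. The other Jun probe set did not share that peak: it read 63.9 on Lyl1-/- 1, below the 71.7 of Lyl1-/- 3.

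Junb, an AP-1 subunit that restrains myeloid progenitor growth in mice, is a chromosomal neighbour of the deleted gene Lyl1, with 13 protein-coding genes between them in the RefSeq table. Junb read 79.3, 77.1 and 75.3 in E2A-/-, 79.8, 82.8 and 75.3 in Lyl1-/- and 71.3, 77.7 and 72.9 in WT. Its values lay close to the array median throughout, and the groups overlapped. The log2 difference was 0.08 for Lyl1-/- over WT (SE 0.0917, limma adjusted p = 0.906; 95% interval -0.13 to 0.29) and 0.04 for E2A-/- over WT (SE 0.0917, limma adjusted p = 0.963). Junb passed the filter with 3 arrays above the median, E2A-/- 1, Lyl1-/- 1 and Lyl1-/- 2.

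Among the other transcription factors, Egr1 had the most separated groups. Egr1 is a zinc finger factor that serum response factor and MAP kinases induce, and in mice it keeps stem cells quiescent in the marrow. It read 95.2, 85.9 and 78.1 in E2A-/-, 99.0, 85.6 and 78.3 in Lyl1-/- and 107, 100.4 and 109.6 in WT. All 6 knockout arrays were below all 3 WT arrays, and both knockout groups spread more widely than WT. WT 1 and WT 3 were counted as 1 sample, so the WT spread is that of 2 samples. The log2 difference was -0.27 for E2A-/- over WT (SE 0.131, unadjusted p = 0.0672, limma adjusted p = 0.633) and -0.26 for Lyl1-/- over WT (SE 0.131, unadjusted p = 0.0843, limma adjusted p = 0.649), neither past the threshold. The comparisons share the WT samples. With each array's lowest intensity subtracted and 16 added before log2, the Egr1 differences were -0.41 and -0.37 (limma adjusted p = 0.561 and 0.615).

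Nr4a1, an orphan nuclear receptor induced by antigen receptor and growth factor signals, read 138, 141 and 152 in E2A-/-, 139, 175 and 158 in Lyl1-/- and 140.1, 161 and 143 in WT. Every array was above the median and the groups overlapped. The log2 difference was -0.07 for E2A-/- over WT and 0.05 for Lyl1-/- over WT (limma adjusted p = 0.952 and 0.971).

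Klf6, a zinc finger factor of the injury response that is abundant in myeloid cells, had 5 probe sets, and they did not move alike. The brightest stood for the gene and read 99.3, 96.0 and 109.6 in E2A-/-, 95.6, 104.9 and 100.9 in Lyl1-/- and 114, 96.4 and 111 in WT. Its log2 difference was -0.04 for E2A-/- over WT (SE 0.109, limma adjusted p = 0.980). The _s_ probe set, whose type can match several transcripts, read 85.8, 134 and 112 in E2A-/-, 91.9, 73.6 and 95.2 in Lyl1-/- and 89.8, 100.1 and 90.2 in WT. Its 2 highest values were E2A-/- 2 and E2A-/- 3, the arrays with granulocyte transcripts, where the granulocyte and monocyte markers had a median log2 difference from WT of 1.72 and 1.72, against 0.02 on E2A-/- 1. On the Lyl1-/- arrays the order differed, with marker medians of 0.52, 0.54 and -0.09 and the highest value of this probe set on Lyl1-/- 3. A further probe set read 78.2, 98.7 and 110.3 in E2A-/-, 85.0, 72 and 101 in Lyl1-/- and 81.8, 92.9 and 81.4 in WT. The part of those markers in the Klf6 values was not tested. With every probe set tested on its own, the adjusted limma p of the _s_ probe set was 0.903 for E2A-/- over WT and 0.705 for E2A-/- over Lyl1-/-.

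**Figure D2:**
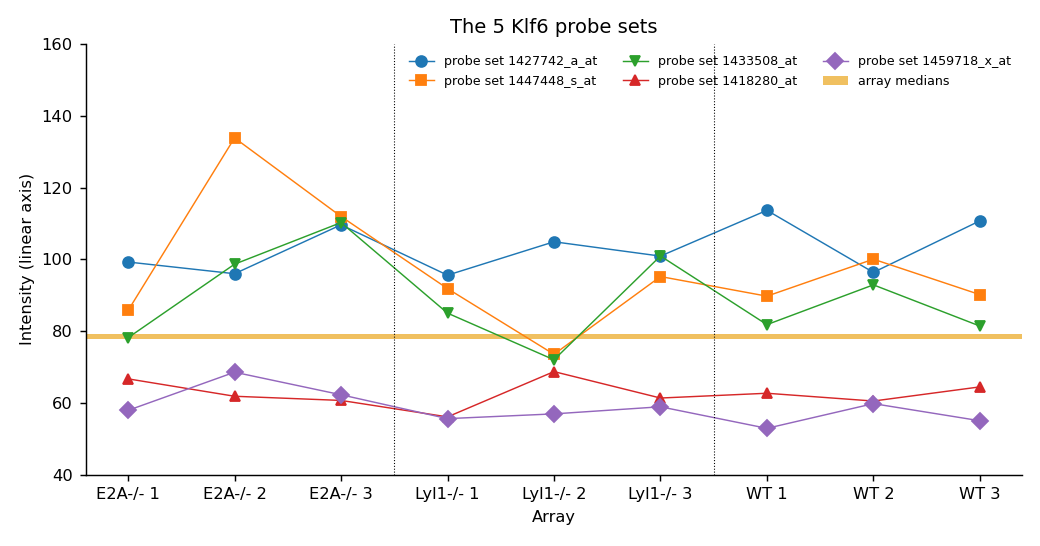
Intensity (linear axis) of the 5 Klf6 probe sets on the 9 arrays, with lines joining the values of 1 probe set and the band spanning the array medians. The _s_ probe set peaks at 134 on E2A-/- 2 and at 112 on E2A-/- 3, while the brightest probe set on average stays between 95.6 and 114.

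Feedback genes act on the signal or on the mRNAs it induces. Ier3, which modulates ERK and NF-kappaB signalling and cell survival, had the largest residual SD of the tested members, each read by the probe set that stood for it. It read 119, 194 and 179 in E2A-/-, 205, 199.7 and 146 in Lyl1-/- and 209.5, 183 and 205 in WT. The low arrays were E2A-/- 1 and Lyl1-/- 3, 1 in each knockout, and the groups overlapped. The log2 difference was -0.28 for E2A-/- over WT (SE 0.227, limma adjusted p = 0.843), -0.10 for Lyl1-/- over WT (SE 0.227, limma adjusted p = 0.969) and -0.18 for E2A-/- over Lyl1-/- (SE 0.203, limma adjusted p = 0.889). E2A-/- 1 and Lyl1-/- 3 were also the arrays with the fewest granulocyte transcripts in their genotypes, with a median log2 difference of the granulocyte and monocyte markers from WT of 0.02 and -0.09, against 1.72 on E2A-/- 2 and E2A-/- 3 and 0.52 and 0.54 on Lyl1-/- 1 and 2. The WT arrays, with marker medians of -0.02 to 0.03, read high for Ier3. Xist was high on 3 of the 4 knockout arrays with high Ier3, on neither low one and on none of the WT arrays. With sex, called from Xist, as a covariate the Ier3 differences were -0.43 for E2A-/- over WT and -0.39 for Lyl1-/- over WT (limma adjusted p = 0.622 and 0.637). As Xist was low on every WT array, that fit read the effect of sex from the knockout arrays only. The part of the granulocyte and monocyte markers in the Ier3 values was not tested. Without E2A-/- 1 the Ier3 difference for E2A-/- over WT was -0.07, and without E2A-/- 2 and 3 it was -0.72. The Ier3 difference for Lyl1-/- over WT was 0.05 without Lyl1-/- 3, and that for E2A-/- over Lyl1-/- was 0.04 without E2A-/- 1, both of opposite sign to the values above.

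Dusp1, the phosphatase that inactivates MAP kinases, read 132, 136 and 130.4 in E2A-/-, 169.5, 133 and 145 in Lyl1-/- and 145.1, 161 and 139 in WT. The E2A-/- arrays lay within a narrow range, all below WT, while the Lyl1-/- arrays spanned it. The log2 difference was -0.19 for E2A-/- over WT (SE 0.121, limma adjusted p = 0.771) and -0.03 for Lyl1-/- over WT (SE 0.121, limma adjusted p = 0.984). Without WT 2 the mean of WT 1 and WT 3 was the only WT sample, and the Dusp1 differences were -0.10 for E2A-/- over WT and 0.06 for Lyl1-/- over WT. Without Lyl1-/- 1 the Dusp1 difference for Lyl1-/- over WT was -0.12. Zfp36, which binds AU-rich elements and speeds the decay of cytokine and early response mRNAs, read 104, 97.3 and 74.6 in E2A-/-, 90.8, 93.3 and 85.2 in Lyl1-/- and 100.6, 107 and 104 in WT. All 3 Lyl1-/- arrays lay below WT, and the low E2A-/- value was that of E2A-/- 3. The log2 difference was -0.20 for E2A-/- over WT (SE 0.142, limma adjusted p = 0.807) and -0.22 for Lyl1-/- over WT (SE 0.142, limma adjusted p = 0.753). Without E2A-/- 3 the Zfp36 difference for E2A-/- over WT was -0.06. With spike intensity as a covariate the Zfp36 differences were -0.05 for E2A-/- over WT and 0.02 for Lyl1-/- over WT, which turns the sign for Lyl1-/-. Spike intensity was higher on all Lyl1-/- arrays (1635 to 2294) than on the WT arrays (1128.7 to 1241), so that fit cannot tell it apart from genotype. E2A-/- 3 had both the highest spike intensity and the lowest Zfp36 value of the 9 arrays.

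Over the 8 tested members, 0 passed the threshold in any comparison by limma. Of all tested genes 0.226% passed for E2A-/- over WT, 0.192% for Lyl1-/- over WT and 0.117% for E2A-/- over Lyl1-/-. At an unadjusted p under 0.05 the member count was 0 in each of them as well, against 8.57%, 8.8% and 8.64% of all tested genes. In a joint test of the 3 genotypes (limma's moderated F) 0 of 8 passed, with adjusted p from 0.653 to 0.996 and 0 unadjusted, against 0.284% of all genes adjusted and 9.97% unadjusted. The ranges of E2A-/- and WT did not overlap for 2 of 8 members (Egr1 and Dusp1), as for 17.8% of all tested genes. The same held for 2 of 8 in Lyl1-/- (Egr1 and Zfp36), against 22.1%, and for 0 of 8 between the knockouts, against 12.2%. Differences were negative in 7 of 8 members for E2A-/- over WT, where 53.7% of all tested genes were, with a median of -0.13 against -0.01 over all tested genes. They were negative in 6 of 8 for Lyl1-/- over WT (51.4% of all tested genes; median -0.04 against 0.00) and in 6 of 8 for E2A-/- over Lyl1-/- (52.6%; median -0.03 against -0.01).

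The intervals state what these arrays leave possible. Across the 8 members the 95% intervals reached from 0.574 to 1.25 times WT for E2A-/-, from 0.650 to 1.33 times WT for Lyl1-/- and from 0.640 to 1.25 times Lyl1-/- for E2A-/-, without adjustment for the number of genes and on the compressed scale of the deposited values. The widest belonged to Ier3 in all 3 comparisons at the lower end. The absence of calls does not show equal levels.

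**Figure D3:**
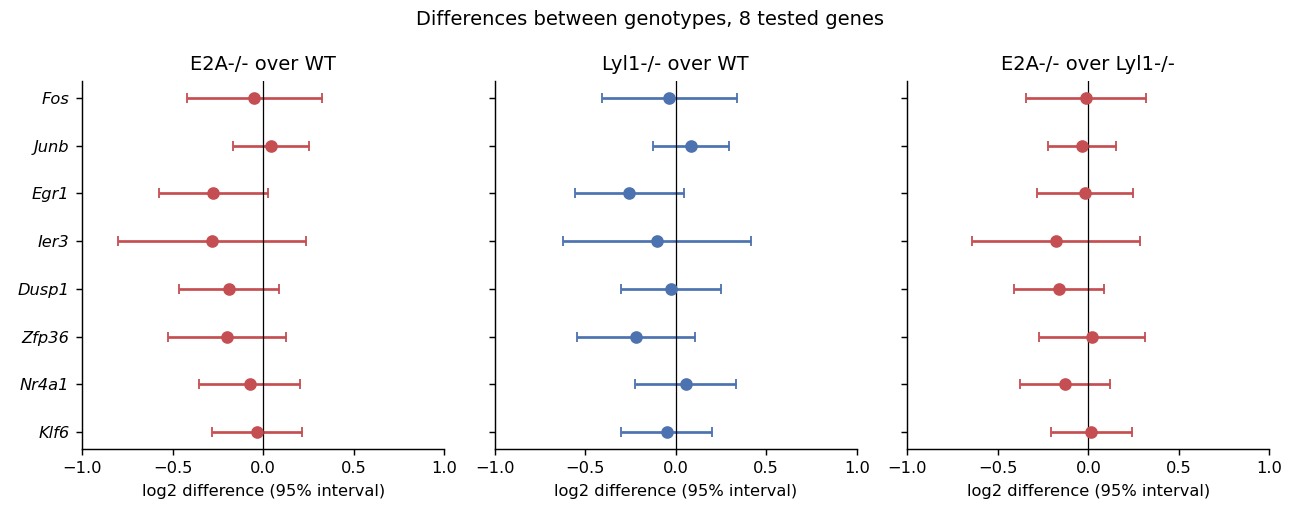
Log2 difference of the 8 tested genes (points) with its 95% interval (bars) for E2A-/- over WT, Lyl1-/- over WT and E2A-/- over Lyl1-/-. All 24 intervals include 0, and the Ier3 interval for E2A-/- over WT is the widest on the low side, reaching -0.80.

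Variation between replicates was then set against genotype. The share of a gene's sum of squares that lay between genotypes was 1.44% for Fos, 5.57% for Klf6, 18.8% for Ier3, 22.9% for Nr4a1, 31.4% for Junb, 32.5% for Zfp36, 41.4% for Dusp1 and 50.3% for Egr1. Its median was 27.1% over the members and 28.3% over all tested genes. The residual SD within genotypes had a median of 0.137 on the log2 scale over the members and 0.157 over all tested genes. Spread rose with intensity. In the 35 pairs of arrays other than WT 1 and WT 3, the robust log2 spread at the brightest 20% of probe sets was 2.12 to 4.24 times that at the dimmest 20%. Most members were dim, so medians and percentiles over genes of all intensities are not matched to their level. Ier3 had 0.30, at the 90.9th percentile of tested genes, and Fos 0.200, at the 67.4th. Zfp36 (0.166), Egr1 (0.145), Nr4a1 (0.128), Dusp1 (0.126), Klf6 (0.103) and Junb (0.0597) were lower, Junb at the 6.66th percentile. The Klf6 value is that of its brightest probe set. Its _s_ probe set had group SDs of 0.32 in E2A-/-, 0.20 in Lyl1-/- and 0.11 in WT, and a further one 0.25, 0.24 and 0.13. The Klf6 probe sets that stayed below the array median on every array had group SDs of 0.04 to 0.15.

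**Figure D4:**
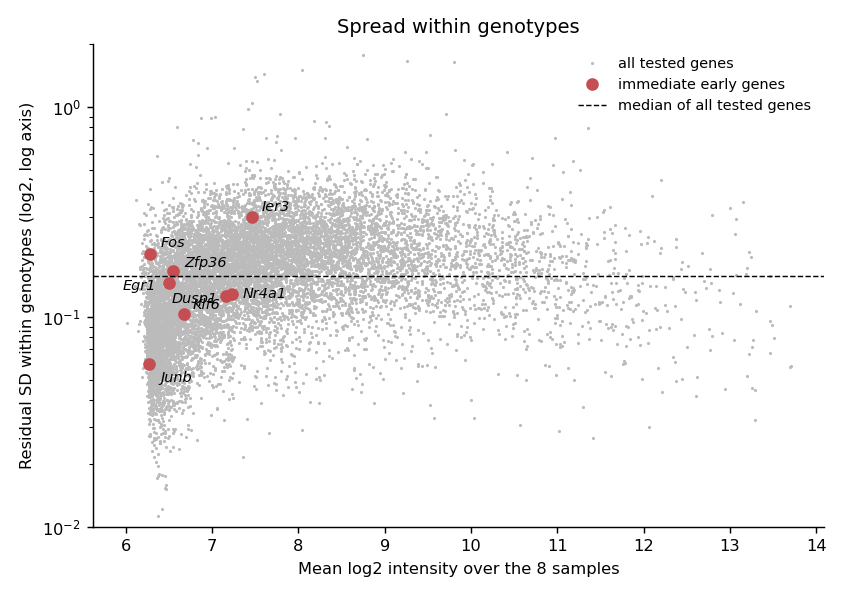
Residual SD within genotypes (log2, log axis) against mean log2 intensity for 11961 tested genes (grey), with the 8 immediate early genes in red and the median of all tested genes dashed. Ier3 at 0.30, Fos at 0.200 and Zfp36 at 0.166 lie above the median of 0.157, and the other 5 below it, each gene read by the probe set that stood for it.

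The highest and the lowest array differed from gene to gene. Lyl1-/- 1 was the highest of the 9 arrays for Fos, Jun and Dusp1 and the lowest for Fosb and Klf6. E2A-/- 3 was the lowest for Egr1, Dusp1 and Zfp36, E2A-/- 1 for Ier3 and Nr4a1, and Lyl1-/- 3 for Fos. Ier3 was low on both E2A-/- 1 and Lyl1-/- 3. Averaged over the 8 tested members, the deviation from the genotype mean was -0.01, 0.04 and -0.03 on E2A-/- 1 to 3, 0.08, 0.03 and -0.11 on Lyl1-/- 1 to 3, 0.01 on WT 2 and -0.01 on the mean of WT 1 and 3. The number of members above the genotype mean was 4, 4 and 3 of 8 on the E2A-/- arrays, 6, 5 and 2 on the Lyl1-/- arrays and 5 on WT 2. Of 41 other early response genes, 16, 33 and 19 were above their genotype mean on E2A-/- 1 to 3, 17, 24 and 20 on Lyl1-/- 1 to 3 and 14 on WT 2. Their average deviation was -0.05, 0.09 and -0.04 on E2A-/- 1 to 3, 0.00, 0.04 and -0.03 on Lyl1-/- 1 to 3 and -0.02 on WT 2. Both averages were negative on E2A-/- 1, E2A-/- 3 and Lyl1-/- 3 and positive on E2A-/- 2 and Lyl1-/- 2. On Lyl1-/- 1 and WT 2 only that of the members was above 0. Over all tested genes the median deviation was 0.03, -0.01 and -0.03 on E2A-/- 1 to 3. It was -0.005, 0.02 and -0.01 on Lyl1-/- 1 to 3 and -0.005 on WT 2. The members' average of -0.03 on E2A-/- 3 thus equalled this median. Counts of all genes above their genotype mean were not made. Without Lyl1-/- 1 the residual SD fell to 0.123 for Fos, against 0.200 with it, and to 0.0796 for Dusp1, against 0.126. Without E2A-/- 3 it was 0.0608 for Zfp36, against 0.166.

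**Figure D5:**
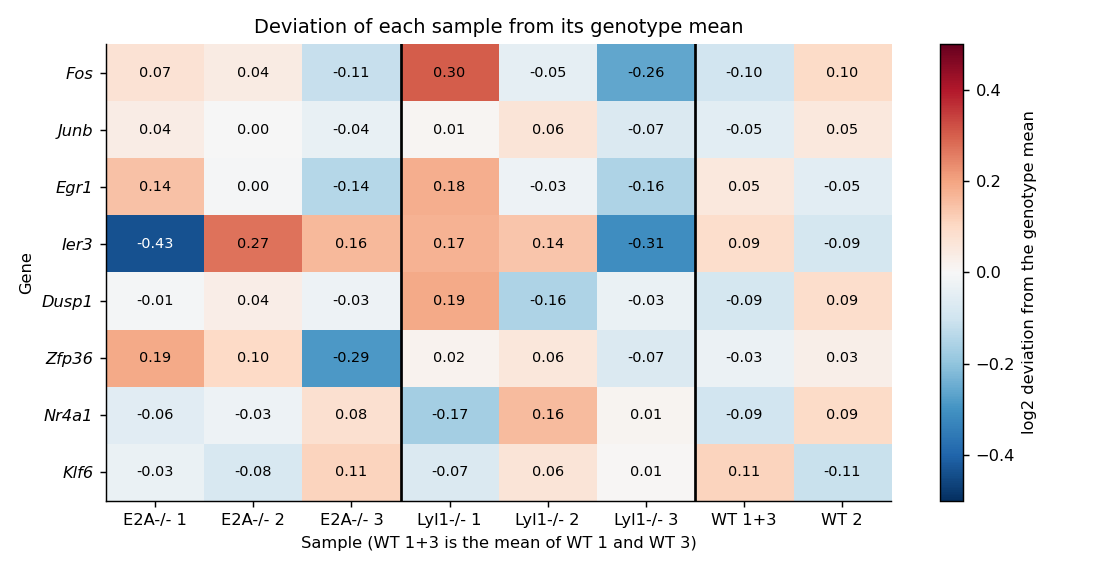
Log2 deviation of each of 8 samples from the mean of its genotype for the 8 tested genes; red is above and blue below, and the values of WT 1+3 and WT 2 mirror each other because WT has 2 samples. The largest deviations are those of Ier3 on E2A-/- 1 (-0.43) and Lyl1-/- 3 (-0.31) and of Fos on Lyl1-/- 1 (0.30).

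RNA quality and hybridisation controls were read beside these values. The actin 3-prime over 5-prime ratio was 10.1 on E2A-/- 2 and 10.6 on WT 2, against 2.85 to 4.23 on the other arrays. The members' average deviation on E2A-/- 2 and WT 2 was 0.04 and 0.01. The geometric mean of the hybridisation spike controls was 1045 on E2A-/- 1, 1522 on E2A-/- 2, 2831 on E2A-/- 3, 1635 to 2294 on the Lyl1-/- arrays and 1128.7 to 1241 on the WT arrays. With this measure as a covariate 0 members passed, the residual SD of Zfp36 was 0.0559, against 0.166 without it, and the Zfp36 differences from WT moved as given above.

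A wider list of 52 other early response genes was read beside the members. Of its 41 tested genes 0 passed by limma in any comparison, with 3 lower and 1 higher at an unadjusted p under 0.05 for E2A-/- over WT, 1 lower for Lyl1-/- over WT and 1 higher for E2A-/- over Lyl1-/-. Of all tested genes 8.57%, 8.8% and 8.64% had an unadjusted p under 0.05 in the same order. The median difference of the 41 was 0.03, 0.04 and 0.00 in these comparisons, and 16, 18 and 21 of them were negative, as were 53.7%, 51.4% and 52.6% of all tested genes. Ccl3, a chemokine gene induced in activated myeloid cells, read 91.5, 96.5 and 82.1 in E2A-/-, 93.2, 90.9 and 96.7 in Lyl1-/- and 130.4, 124 and 132 in WT. The WT arrays were above all 6 knockout arrays, with log2 differences of -0.51 (SE 0.101, limma adjusted p = 0.147) and -0.45 (SE 0.101, limma adjusted p = 0.211). Its relative Ccl4 had -0.35 and -0.27, and Zfp36l2, a paralog of Zfp36, -0.53 and -0.39 (limma adjusted p from 0.527 to 0.686). Btg2, an antiproliferative early response gene, read 154, 207 and 189 in E2A-/-, 129, 124 and 123 in Lyl1-/- and 132, 120.2 and 127 in WT. Its E2A-/- values were above all others, with a log2 difference of 0.54 over WT (SE 0.132, limma adjusted p = 0.238) and 0.54 over Lyl1-/- (SE 0.118, limma adjusted p = 0.282). Groups did not overlap in 17.8% of all tested genes for E2A-/- over WT, 22.1% for Lyl1-/- over WT and 12.2% for E2A-/- over Lyl1-/-. Id1, an inhibitor of E proteins, differed by -0.24 for E2A-/- over Lyl1-/-, Klf2 by 0.28 and Csrnp1 by -0.18 (limma adjusted p from 0.603 to 0.634).

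The 4 most variable genes of that list had a larger residual SD than any tested member. Socs3, a cytokine feedback inhibitor, read 151, 243 and 275 in E2A-/-, 359.9, 299.8 and 96.5 in Lyl1-/- and 166, 136 and 161 in WT (residual SD 0.716). The kinase gene Pim1, a target of cytokine signals, read 391, 1268 and 664 in E2A-/-, 956, 957 and 558 in Lyl1-/- and 634, 608 and 644 in WT (residual SD 0.609). For both genes the low knockout arrays were E2A-/- 1 and Lyl1-/- 3, the arrays on which Ier3 was also low. Id2, an inhibitor of E proteins, had a residual SD of 0.461 through a value of 181 on Lyl1-/- 3, against 66.7 to 102.8 on the other arrays, and Sgk1 had 0.347. None of these 4 genes passed in a comparison, with a lowest limma adjusted p of 0.639.

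Upstream of the members, kinases and factors of the MAP kinase, SRF and CREB pathways were measured in 24 of 32 listed genes, all tested. By limma 0 passed in each comparison. At an unadjusted p under 0.05, 1 was higher and 1 lower in each knockout over WT, and 2 and 2 between the knockouts. Of all tested genes 8.57% had such a p for E2A-/- over WT, 8.8% for Lyl1-/- over WT and 8.64% between the knockouts. The median difference of the 24 genes was 0.00 for E2A-/- over WT and 0.02 for Lyl1-/- over WT.

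By likeness of pattern, the genes nearest to the members' average deviation over the 8 samples were Snap23 (Pearson r = 0.991), Tbc1d16 (0.990), Ndrg2 (0.989), Macir (0.985) and 1700037H04Rik (0.983). These are the highest of 11953 genes compared over 8 samples, a description with no test. Snap23 read 103, 116 and 96.9 in E2A-/-, 134, 119.7 and 78.9 in Lyl1-/- and 90, 101 and 85.4 in WT, highest on Lyl1-/- 1 and lowest on Lyl1-/- 3.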

How the data were processed

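RMA and oligo are named in the submitters' processing notes, with no version or role. The deposited file holds intensity values, linear in scale, and was used as given. These deposited intensities were put on the log2 scale with nothing added. Of 45101 probe sets, 64 controls, 932 with several genes and 9160 with none were left out, and 34945 had 1 gene by the platform annotation. The probe set with the highest mean over the arrays stood for a gene. A gene was tested where this probe set exceeded the array median on 3 or more arrays, as for 11961 genes. Fosb and Jun did not pass this filter.

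WT 1 and WT 3 were averaged as above, which leaves 8 samples and 5 residual degrees of freedom. A linear model of the 3 genotypes was fitted in R 4.3.3 (limma 3.58.1, lmFit and eBayes), with Benjamini-Hochberg adjustment over all tested genes and a threshold of 0.05. Adjusted p-values come from this fit. The members and the gene lists were chosen with earlier results of these data known. Named beside the members are Lyl1, Tcf3, up to 4 other early response genes with the smallest p in each comparison and 4 with the largest residual SD, and 5 genes of like pattern; other markers were named only to describe the arrays. Their small number sets the precision of array values. Alternatives were other normalizations, filters and probe set rules, covariates and arrays left out.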

Additional observations from a re-analysis of the deposited data

How the results depend on the processing

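The counts of 0 members past the threshold in the 3 comparisons and in the joint test held under all 26 or 27 alternatives run for each, 107 values in all. The fit without WT 1 and WT 3 was chosen after seeing the data. Over all tested genes the number called by limma ran from 6 to 97 for E2A-/- over WT (27 as reported), from 7 to 93 for Lyl1-/- over WT (23), from 3 to 23 for E2A-/- over Lyl1-/- (14) and from 9 to 107 in the joint test (34), highest with 9 separate samples for both comparisons with WT. Of 636 log2 differences of single members under alternatives, 46 had the opposite sign, and none was past the threshold on either side. Leaving out 1 array at a time turned the sign of 12 of the 24 differences at least once. Deviations of same-numbered arrays from their genotype means had correlations from -0.14 to 0.22. With so few samples per genotype, and WT 1 and WT 3 nearly alike, these cannot show whether the numbers pair arrays. With the replicate block on 9 separate samples 0 members passed, with the lowest limma adjusted p of 0.275 for Egr1, and 60, 55 and 13 genes passed in the 3 comparisons.

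The residual SD of a member kept within 1.5 times its value in 220 of 228 alternatives. Of the 8 others, 3 were Fos and Dusp1 without Lyl1-/- 1 (0.123 and 0.0796) and Zfp36 without E2A-/- 3 (0.0608). The remaining 5 were Fos (0.113) and Dusp1 (0.0773) with only E2A-/- and WT fitted, and Zfp36 with only Lyl1-/- and WT fitted (0.0598), without E2A-/- 2 and 3 (0.0598) and with spike intensity as a covariate (0.0559). With 1 array left out at a time the residual SD ran from 0.123 to 0.222 for Fos, from 0.0796 to 0.141 for Dusp1, from 0.0608 to 0.185 for Zfp36, from 0.205 to 0.330 for Ier3, from 0.117 to 0.162 for Egr1, from 0.0979 to 0.143 for Nr4a1, from 0.0850 to 0.115 for Klf6 and from 0.0495 to 0.0667 for Junb. Low signal over background limits what can be read from Fos, Fosb, Jun and Junb.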

Other observations

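Heat shock genes, another class that handling can induce, ranged from background to bright in these cells, and 0 of 13 tested passed in any comparison by limma (at an unadjusted p under 0.05, 1 lower for Lyl1-/- over WT and 0 in the others). Of all tested genes 8.57% had such a p for E2A-/- over WT, 8.8% for Lyl1-/- over WT and 8.64% for E2A-/- over Lyl1-/-. Hspa8 read 7231 to 9754 and Dnajb1 1173 to 1741 over the 9 arrays, while Bag3 read 104 to 140.2 and Hspb1 100.1 to 127, all 4 also named after their values were seen. The inducible chaperone genes Hspa1a and Hspa1b, named here after their values were seen, stayed at 54.6 to 64.7 and 54.8 to 98.4, with Hspa1b above the array median on 1 array, E2A-/- 3. The median log2 difference of the heat shock list from WT was 0.07, 0.09 and -0.23 on E2A-/- 1 to 3, 0.01, 0.06 and -0.10 on Lyl1-/- 1 to 3, and 0.12, -0.09 and 0.13 on WT 1 to 3.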
